A study of Mus musculus with 6 samples.

Results

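The genes described here encode heterotrimeric G protein subunits, regulators of G protein signalling (RGS proteins), adenylyl cyclases and cyclic nucleotide phosphodiesterases of the mouse olfactory epithelium. They were taken by symbol, as the Gna, Gnb, Gng, Rgs, Adcy and Pde genes of the table. The 7 genes tied most closely to olfactory or chemosensory transduction (Gnal, Gng13, Gng8, Gnat3, Adcy3, Pde1c and Pde4a) were kept out. This left 84 of 21881 gene symbols, made up of 14 Gna, 7 Gnb, 8 Gng, 22 Rgs, 9 Adcy and 24 Pde symbols. Some match by name only. Gnb1l and Gnb2l1 are not beta subunits, Pde12 and Pde4dip do not encode cyclic nucleotide phosphodiesterases, Rgs7bp and Rgs9bp are anchors of RGS proteins, and Pde6d, which binds lipid-modified proteins, is not catalytic.

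KO libraries came from olfactory epithelium of adult NMRI mice lacking NKCC1 (NKCC1-/-), a chloride-loading cotransporter whose gene is Slc12a2, and WT libraries from wild-type NMRI epithelium. The construction of the allele and the age in weeks are not given in the labels. Each genotype had 3 libraries, a mixed pool of 2 epithelia of each sex, a male pool of 3 mice and a female pool of 3 mice. Wherever 3 values are given for a genotype below, they are those of its mixed, male and female library, in this order. All libraries were treated with duplex-specific nuclease, which depletes abundant transcripts, so differences among abundant genes such as Gnb1 can be compressed.

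A G protein is a complex of an alpha, a beta and a gamma subunit. An activated receptor makes the alpha subunit exchange GDP for GTP and part from the beta-gamma pair, and RGS proteins speed the return to the GDP form. Gs-type alpha subunits stimulate adenylyl cyclases, which make cAMP, Gi-type subunits inhibit them, and phosphodiesterases degrade cAMP and cGMP. In olfactory neurons the odour response runs through the Gs-like alpha subunit Golf (Gnal) and the cyclase Adcy3, while the beta subunit of Gnb1 is the usual partner of the gamma subunit of Gng13 in their cilia.

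None of the tested members passed the comparison of KO with WT. Expression was given as FPKM, that is, fragments scaled by transcript length and by library total. The test was limma on log2(FPKM + 1) across the 15067 symbols that averaged 0.5 FPKM or more, among them 67 of the 84 members. Of these, 0 had a Benjamini-Hochberg adjusted p under 0.05, where 0.836% of all tested genes did (0.212% higher and 0.624% lower in KO). The smallest adjusted p of a member was 0.134, that of Gnb3. At an unadjusted p under 0.05, where 8.88% of all tested genes lay, 6 members were higher and 2 lower in KO. This is 8.96% and 2.99% of the 67, against 4.26% and 4.62% of all tested genes. After rescaling of the libraries by median-of-ratios factors these counts were 10 and 5 members, against 1135 and 1279 of 15044 genes. The KO libraries lay all above the WT libraries for 12 members (17.9%, against 7.46% of all genes) and all below for 2 (2.99%, against 5.24%), so 14 of the 67 (20.9%) did not overlap, against 12.7% of all genes. The median change of the 67 members was 0.17 on the log2 scale, with 46 positive (68.7%) and 21 negative, against a median of 0.01 and 52.1% positive over all genes. The 95% interval of a member's change reached a median of 0.56 to either side on the log2 scale, so smaller differences could not be resolved with 3 pools against 3. Every library is a pool, and the 3 pools of a genotype differ in sex make-up and depth. A p-value here thus reflects how much such unlike pools vary, not like pools or single mice.

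Depth was read from the smallest steps of the FPKM values, and was about 3960000, 13270000 and 11590000 fragments in KO and 3460000, 14220000 and 11190000 in WT. In a transcript of 1 kb, 1 fragment was then worth 0.25 FPKM in the KO mixed and 0.29 FPKM in the WT mixed library, and 0.070 to 0.089 FPKM in the other 4. The 10 most abundant genes held 45.7% of all FPKM in the WT female library, the highest share. They held 33.5% and 34.4% in the KO mixed and KO male libraries. In the KO female, WT mixed and WT male libraries they held 16.9%, 15.5% and 16.4%. Median-of-ratios scaling factors were 1.004, 0.893 and 1.15 in KO, and 1.21, 1.064 and 0.762 in WT, the lowest being that of the WT female library. Slc12a2, the targeted gene, was at 28.0, 16.1 and 18.0 FPKM in KO and 83.3, 40.2 and 36.0 FPKM in WT, without overlap (log2 change -1.26 ± 0.32, adjusted p = 0.11 in limma). Over the other settings and subsets of libraries tried, its adjusted p in limma ran from 0.0039, without the WT female library, to 0.35. The 11 markers of mature olfactory neurons, Omp, Gnal, Adcy3 and Gng13 among them, summed to 4308 to 6408.5 FPKM in KO and 7698 to 11760 FPKM in WT libraries, without overlap. A large part of the sum was S100a5, at 1094, 1585 and 1261 FPKM in KO and 3372, 3918 and 2827 FPKM in WT. Omp was at 1220, 1209 and 2012 FPKM in KO and 2977, 2926 and 1800 FPKM in WT. On their own Omp, Gnal, Adcy3, Gng13 and Rtp1 overlapped between genotypes, and the other markers did not. In such whole-tissue samples fewer cells of a type and less RNA per cell cannot be told apart.

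**Figure D1:**
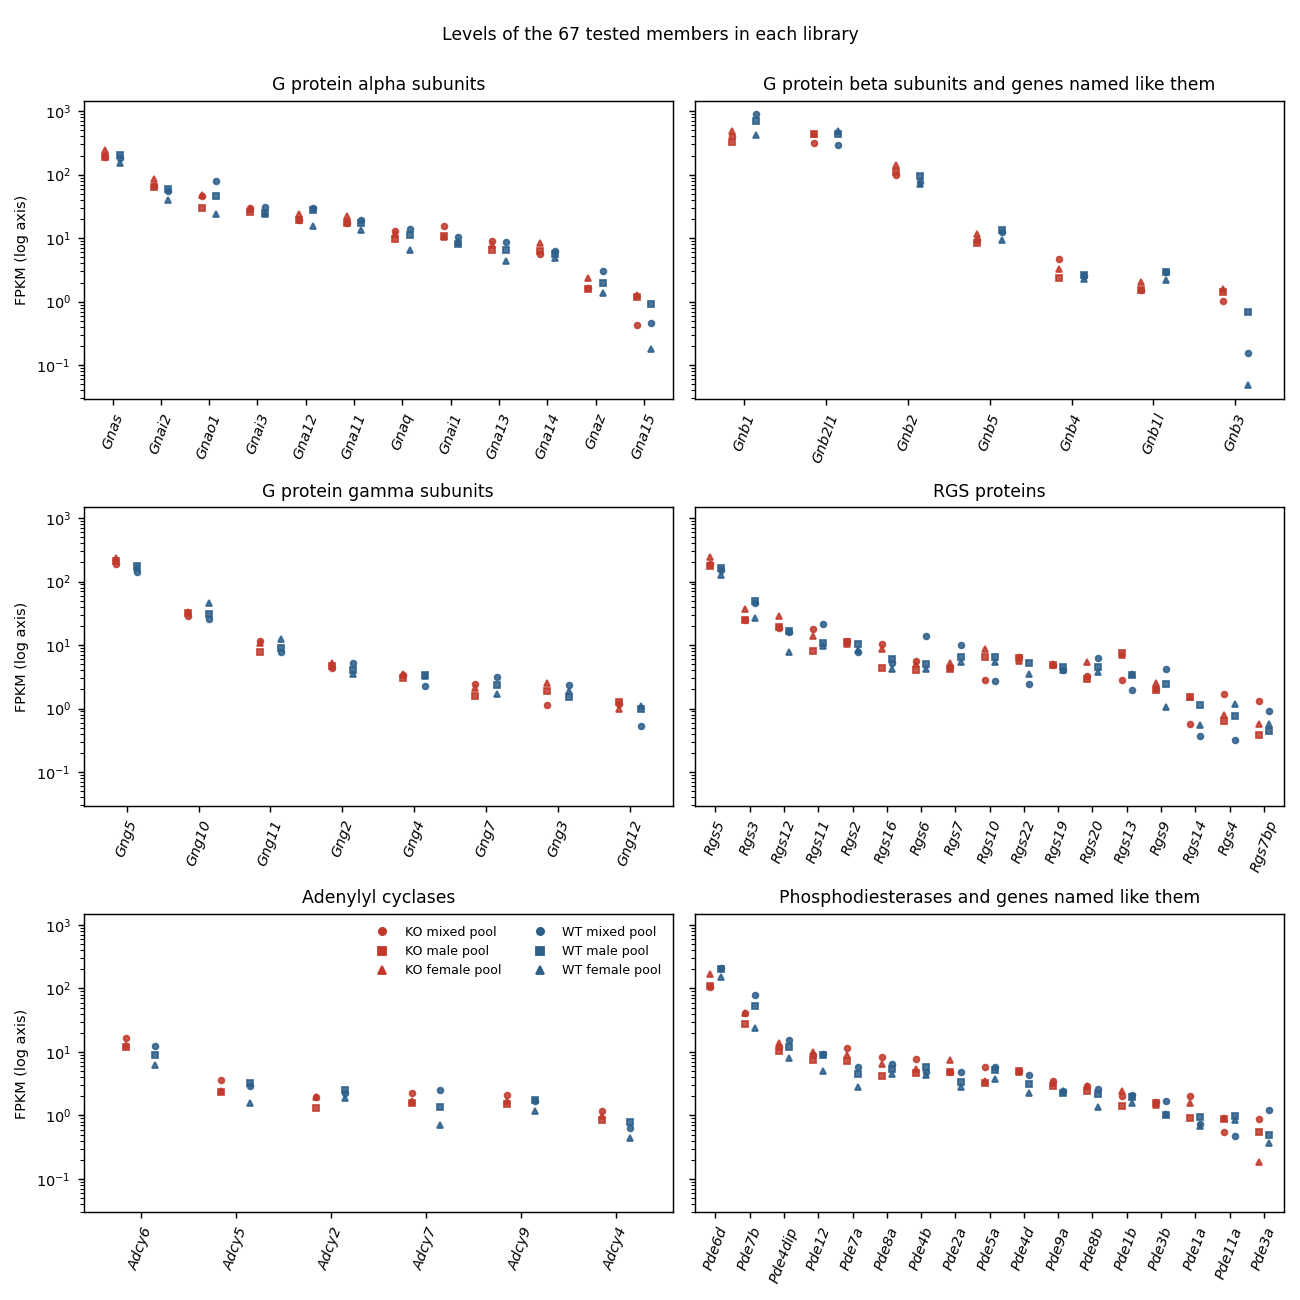
FPKM (log axis) of the 67 tested members in each of the 6 libraries, by family and ordered by mean, KO in red left of WT in blue, with circles for mixed, squares for male and triangles for female pools. Gnb1, Gnb2l1, Gnas, Gng5, Rgs5 and Pde6d stand above 100 FPKM on average, and most members lie under 10 FPKM.

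Since FPKM are per length, levels of different genes can be set side by side, although the nuclease treatment can lower abundant genes relative to scarce ones. Only 6 members averaged at least 100 FPKM over the 6 libraries, and 22 averaged at least 10 FPKM. The highest were Gnb1 (403 ± 76.1 FPKM in KO and 679 ± 237 in WT), Gnb2l1, a ribosome-associated scaffold (396 ± 66.6 and 410 ± 107), Gnas (206 ± 30.7 and 180 ± 23.2), Gng5 (210 ± 23.3 and 161 ± 20.0), Rgs5 (201 ± 35.4 and 148 ± 19.8) and Pde6d (127 ± 34.2 and 189 ± 33.9; SD, n = 3 each, KO before WT). The ranges over libraries of Gnas, Gng5 and Rgs5 overlapped in both genotypes, so their order is not resolved. At the other end, Pde6b, a rod phosphodiesterase subunit of the retina, was listed at 0 in all 6 libraries, and Pde6a in 4 of them. Other retinal members were also near 0, with the rod transducin Gnat1 at no more than 0.096 FPKM in any library and the cone transducin Gnat2 at no more than 0.82 FPKM.

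Promoters are shown for 4 of the beta subunit and phosphodiesterase members: Gnb1 and Pde6d, which had lower means in KO, Gnb2, a beta subunit with a higher mean, and Pde7b, the most abundant catalytic phosphodiesterase of the set. Each runs from 250 bases before to 50 after the start of the gene, 5′ to 3′, from RefSeq on build GRCm38.p6, while the expression values were made on build mm9. Capitals mark the letters GGGCGG on either strand, the core of a GC box, and 2 overlapping matches are joined.
Gnb1 (chr4:155491111-155491410, plus strand): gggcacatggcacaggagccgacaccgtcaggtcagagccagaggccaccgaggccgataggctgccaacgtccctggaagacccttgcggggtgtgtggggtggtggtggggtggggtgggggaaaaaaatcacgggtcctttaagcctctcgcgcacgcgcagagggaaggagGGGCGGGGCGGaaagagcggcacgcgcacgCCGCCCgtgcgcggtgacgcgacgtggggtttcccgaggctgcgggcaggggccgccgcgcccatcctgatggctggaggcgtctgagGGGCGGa
Gnb2 (chr5:137533257-137533556, minus strand): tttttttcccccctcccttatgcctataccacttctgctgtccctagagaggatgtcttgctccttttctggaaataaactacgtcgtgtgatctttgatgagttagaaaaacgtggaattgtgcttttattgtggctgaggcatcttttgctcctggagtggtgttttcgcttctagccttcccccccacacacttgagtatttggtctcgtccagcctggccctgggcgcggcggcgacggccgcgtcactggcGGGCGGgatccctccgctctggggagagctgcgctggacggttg
Pde6d (chr1:86582736-86583035, minus strand): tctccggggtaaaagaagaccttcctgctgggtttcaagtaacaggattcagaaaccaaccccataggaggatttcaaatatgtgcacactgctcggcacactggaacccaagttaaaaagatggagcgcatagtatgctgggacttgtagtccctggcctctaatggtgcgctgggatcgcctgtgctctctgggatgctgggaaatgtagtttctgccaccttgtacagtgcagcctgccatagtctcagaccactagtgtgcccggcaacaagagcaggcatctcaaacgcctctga
Pde7b (chr10:20548279-20548578, minus strand): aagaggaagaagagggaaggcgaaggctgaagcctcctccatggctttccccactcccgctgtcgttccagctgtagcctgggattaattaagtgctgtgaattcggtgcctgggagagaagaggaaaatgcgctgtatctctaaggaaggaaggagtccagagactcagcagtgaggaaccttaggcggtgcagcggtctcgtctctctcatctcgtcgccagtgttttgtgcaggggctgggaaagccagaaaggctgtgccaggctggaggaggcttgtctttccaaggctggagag
The Gnb1 promoter holds 4 GGGCGG matches at 70.3% G and C, the Gnb2 promoter 1 match at 55.0%, and the Pde6d and Pde7b promoters none at 51.7% and 55.7%. Promoter entries were found for 61 members, with 93 start sites. GGGCGG occurs in 44.1% of these and in 35.7% of all 32851 promoters of the same length. The letters CCCNNGGG, the core bound by the olfactory factors of the Ebf family, occur in 22 of the 93 (23.7%, against 13.7% of all promoters) and in none of the 4 shown. The full cAMP response element, TGACGTCA, occurs in 0 of the 93 and in 1.79% of all promoters. Both strands were searched, and a match of letters is not a measured binding site.

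Among the beta subunits, Gnb1 was at 402, 327 and 479 FPKM in KO, against 900.02, 708 and 429 FPKM in WT. Its log2 change was -0.70 ± 0.31 (SE, adjusted p = 0.53 in limma), and the groups overlapped only through the WT female library, which lay below the KO female one. Gnb2, a widely expressed beta subunit, was at 99.1, 110.3 and 140.4 FPKM in KO and 76.3, 94.5 and 70.6 FPKM in WT, a log2 change of 0.53 ± 0.23 (adjusted p = 0.52). Every KO library was above every WT library for Gnb2. In the reference annotation an exon of Gnb2 overlaps one of Epo on the same strand, so single fragments there could be assigned to either gene.

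Gnb3, known from cones and taste cells, was at 1.02, 1.40 and 1.60 FPKM in KO and at 0.156, 0.689 and 0.0484 FPKM in WT. All KO libraries lay above all WT libraries, with a log2 change of 0.87 ± 0.23 (95% interval 0.37 to 1.38, adjusted p = 0.13). Its adjusted p was 0.046 when a term marked the mixed pools and 0.021 when both were left out, and it reached 0.38 without the KO female library. With a pseudocount of 0.5 or 0.1 in place of 1 the change was 1.28 or 2.19, with an adjusted p of 0.14 or 0.19. The WT mixed and WT female values are below the worth of 1 fragment in 1 kb, so the ratio of KO to WT is poorly known. The 6 markers of solitary chemosensory and Trpm5 microvillar cells summed to 19.9 to 31.5 FPKM in KO and to 5.73 to 12.4 FPKM in WT libraries, and all 6 were found. Their part in the Gnb3 values was not tested. Among these markers, Trpm5 was at 5.64, 7.66 and 11.8 FPKM in KO and at 3.21, 3.01 and 1.74 FPKM in WT.

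Gnb5, which pairs with the R7 group of RGS proteins, averaged 9.89 ± 1.75 FPKM in KO and 11.8 ± 2.21 in WT. Gnb4 averaged 3.44 ± 1.14 and 2.46 ± 0.185 FPKM. Both overlapped between genotypes (adjusted p = 1 and 0.96). Of the 2 genes with beta-like names, Gnb2l1 overlapped fully, while Gnb1l was at 1.53, 1.52 and 2.03 FPKM in KO and 2.99, 2.91 and 2.19 FPKM in WT. Gnb1l was 1 of the only 2 members whose KO libraries all lay below the WT libraries (log2 change -0.45 ± 0.24, adjusted p = 0.69). Exons of Gnb1l overlap those of Rtl10 on the same strand, and exons of Pde2a those of another gene model on the same strand. Their values are uncertain in the same way as those of Gnb2. Exons of Gnb2l1 overlap those of Trim41 on the opposite strand, which matters only if fragments were counted without regard to strand. The strandedness is not given.

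Shares within a library do not depend on how the library was scaled. Among the beta subunits they separated the genotypes for Gnb1, Gnb2, Gnb3 and Gnb4. The Gnb5 share overlapped, at 1.81, 1.89 and 1.86% in KO and 1.245, 1.66 and 1.82% in WT. The nuclease treatment can still affect such shares, since Gnb1 was far more abundant than the other beta subunits. Gnb1 made up 77.9, 72.7 and 75.3% of the summed FPKM of the 5 beta subunits in KO, against 90.8, 86.4 and 83.9% in WT. Gnb2 made up 19.2, 24.5 and 22.1% in KO and 7.70, 11.5 and 13.8% in WT. The ratio of Gnb1 to Gnb2 was 4.06, 2.96 and 3.41 in KO and 11.8, 7.49 and 6.08 in WT, so the highest KO ratio was below the lowest WT ratio. These shares and ratios, and those given below for other families, were chosen after the values were seen and carry no test. The ratio of Gnb1 to its olfactory partner Gng13, by contrast, was 0.71, 0.53 and 0.46 in KO and 0.70, 0.54 and 0.42 in WT, and these groups overlap. The marker sum of mature olfactory neurons given above was also lower in every KO than in every WT library, although some of its markers overlapped on their own. The part of these neurons in the share was not tested.

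**Figure D2:**
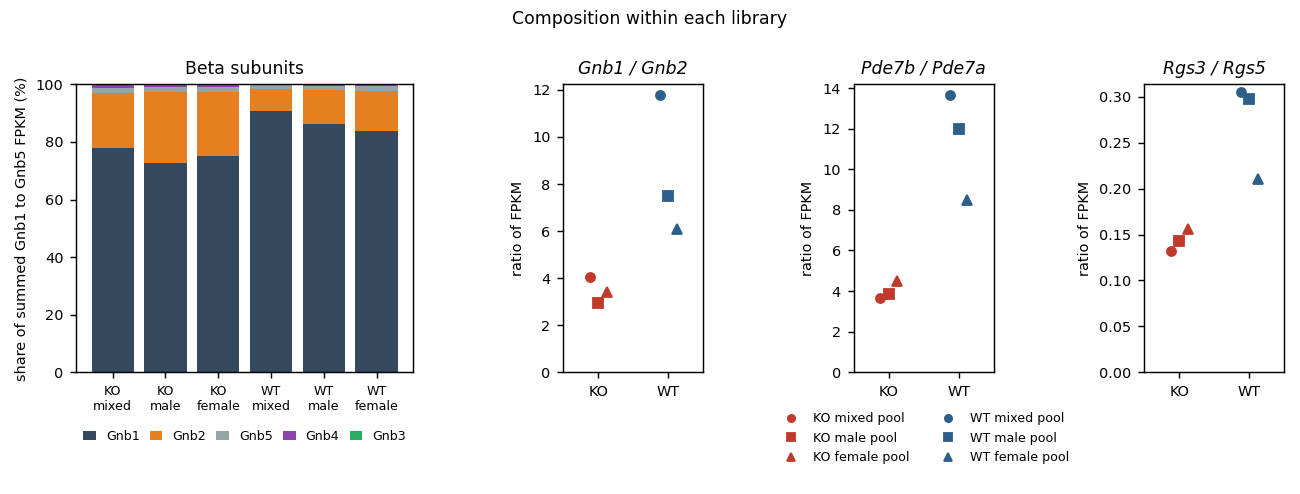
Left, the share (%) of each beta subunit in the summed FPKM of Gnb1 to Gnb5, by library. Right, ratios of FPKM within each library for Gnb1 over Gnb2, Pde7b over Pde7a and Rgs3 over Rgs5, KO in red and WT in blue. Circles mark mixed, squares male and triangles female pools. In all 3 the KO points lie below the WT points, and the pairs were chosen after the values were seen.

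Alpha subunits showed no member past the threshold, and 9 of the 12 tested had a positive change. Gnas, the Gs subunit of most cells, was at 187, 189.7 and 241 FPKM in KO and 181, 202 and 156 FPKM in WT, and the groups overlapped (log2 change 0.19 ± 0.23, adjusted p = 1). Its locus is complex, and a gene model on the opposite strand overlaps its exons. Gnas held 45.3 to 49.5% of the summed alpha subunit FPKM in KO and 41.3 to 52.1% in WT libraries.

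Of the 5 Gi and Go subunits, which inhibit cyclases or act through beta-gamma, only Gnai2 did not overlap. It was at 66.6, 63.7 and 84.3 FPKM in KO and 54.4, 60.4 and 39.8 FPKM in WT (log2 change 0.48 ± 0.24, adjusted p = 0.63). Gnai2 held 16.2 to 17.2% of the alpha subunit FPKM in KO and 12.4 to 14.6% in WT libraries. Its level and its share were thus both higher in each KO library than in any WT library. Gnai1 averaged 12.3 ± 2.99 FPKM in KO and 9.13 ± 1.24 in WT, Gnai3 28.5 ± 1.998 and 26.4 ± 3.59, and Gnaz 1.84 ± 0.42 and 2.11 ± 0.84. Gnao1, the neuronal Go subunit, was at 46.3, 29.7 and 47.2 FPKM in KO and spread more widely in WT, at 80.6, 46.2 and 24.0 FPKM. Its change of -0.15 ± 0.36 (adjusted p = 1) became 0.16 without both mixed pools. The ratio of Gnao1 to Gnai2 was 0.695, 0.467 and 0.56 in KO and 1.48, 0.765 and 0.60 in WT, and these groups overlapped. Gnai2 and Gnao1 are also the G proteins of vomeronasal neurons, whose 4 markers summed to 3.02 to 4.70 FPKM in KO and 1.98 to 4.12 FPKM in WT libraries. Nearly all of this was Trpc2, while the receptors Vmn2r1, Vmn1r45 and Vmn1r51 were listed at 0 in every library but the KO male one, where the highest was 0.16 FPKM.

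The Gq group, which activates phospholipase C, had 4 positive changes in 4, with Gnaq at -0.13 when the WT female library was left out. Gna11 averaged 19.0 ± 3.16 FPKM in KO and 16.9 ± 2.93 in WT, Gnaq 11.4 ± 1.54 and 10.5 ± 3.78, Gna14 6.81 ± 1.39 and 5.55 ± 0.72, and Gna15, known from blood cells, 0.97 ± 0.47 and 0.515 ± 0.37. The groups overlapped for each of them. Gna12 and Gna13, the alpha subunits of the G12/13 class, overlapped as well, at 20.8 ± 2.48 and 7.70 ± 1.24 FPKM in KO, against 24.2 ± 7.66 and 6.51 ± 2.14 FPKM in WT.

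Gamma subunits other than Gng13 and Gng8 were led by Gng5. It was at 186, 209 and 233 FPKM in KO and 139, 178 and 166 FPKM in WT (log2 change 0.38 ± 0.23, adjusted p = 0.77), without overlap. Gng5 held 77.95, 79.98 and 80.1% of the FPKM of the 8 gamma members in KO, against 74.8, 77.6 and 70.5% in WT. Gng10, the next most abundant, was at 28.5, 32.2 and 32.8 FPKM in KO and at 25.4, 30.3 and 46.0 FPKM in WT, where the female library was the high one. Gng11 averaged 10.01 ± 2.02 FPKM in KO and 9.69 ± 2.33 in WT, Gng2 4.72 ± 0.39 and 4.21 ± 0.89, Gng7 2.05 ± 0.44 and 2.39 ± 0.71, and Gng12 1.16 ± 0.15 and 0.86 ± 0.29. All of these overlapped between genotypes, as did Gng3 and Gng4. Exons of Gng10 and Gng3 overlap other gene models.

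**Figure D3:**
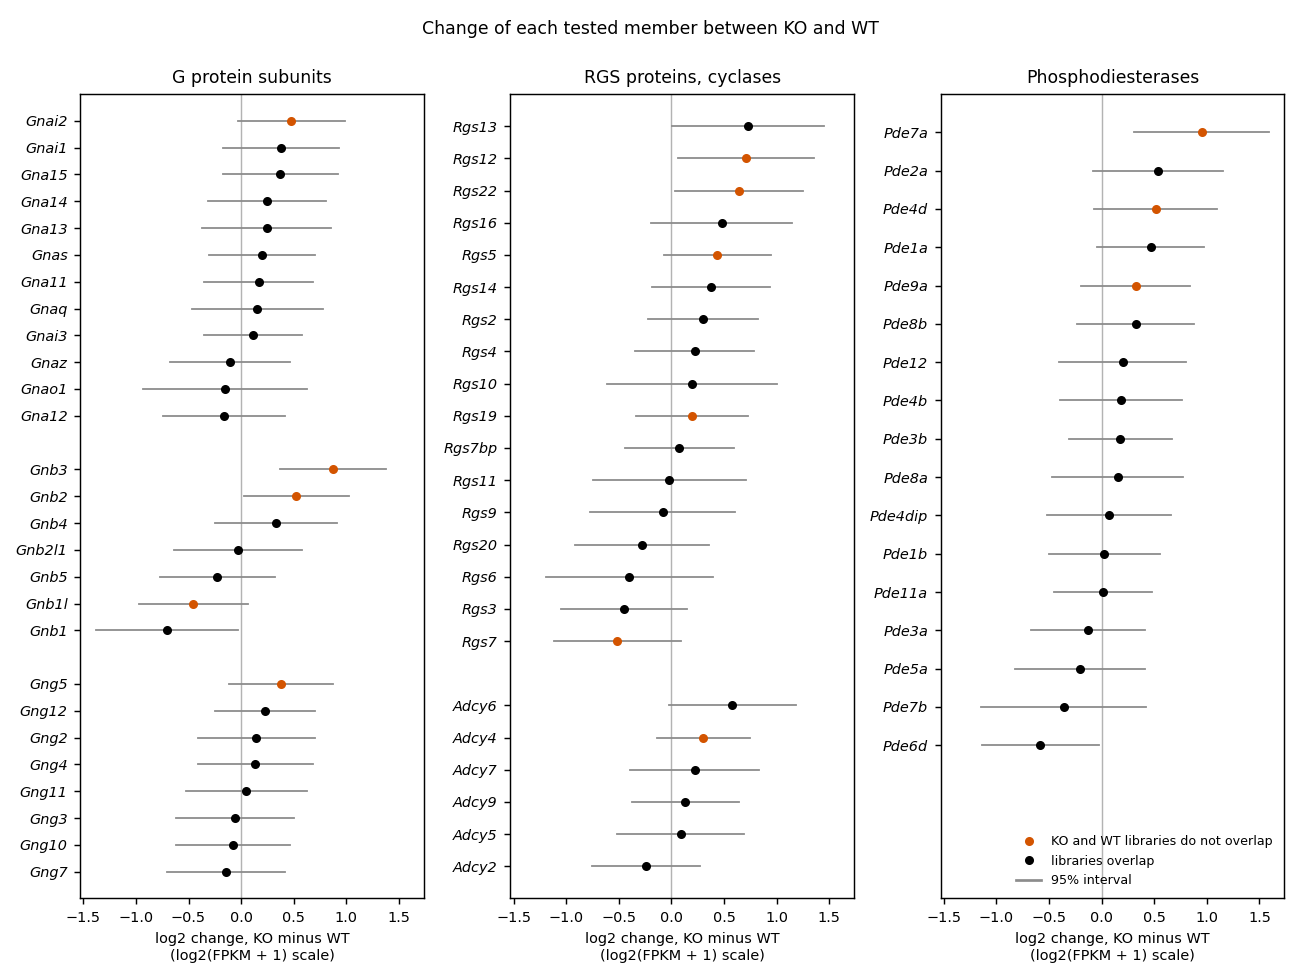
Log2 change (KO minus WT, on the log2(FPKM + 1) scale) of the 67 tested members with its 95% interval, by family. Orange points are members whose KO and WT libraries do not overlap, 12 to the right of zero and 2 to the left; Pde7a (0.95) and Gnb3 (0.87) lie farthest right and Gnb1 (-0.70) farthest left.

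RGS proteins were dominated by Rgs5, a gene best known from pericytes and vascular smooth muscle. It was at 189, 174 and 241 FPKM in KO and 152, 166 and 127 FPKM in WT (log2 change 0.43 ± 0.24, adjusted p = 0.70), without overlap. The 8 pericyte and smooth muscle markers, all found, summed to 207 to 240 FPKM in KO and 192 to 246 FPKM in WT libraries, and these ranges overlapped. Most of each sum was Acta2 and Tagln, so it says little about the less abundant markers. Pdgfrb, Kcnj8, Abcc9 and Notch3 were each at no more than 8.42 FPKM in any library and also overlapped. The part of such cells in the Rgs5 values was not tested. Rgs5 took 61.3, 61.2 and 62.1% of the RGS FPKM in KO, against 51.4, 55.2 and 58.4% in WT.

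Rgs3, another R4 group member, was at 25.1, 24.8 and 37.5 FPKM in KO and 46.5, 49.3 and 26.6 FPKM in WT (log2 change -0.45 ± 0.28, adjusted p = 0.79). As for Gnb1, the WT female library was the low one, and the groups overlapped. Its share of the RGS FPKM was 8.12, 8.76 and 9.66% in KO and 15.7, 16.4 and 12.3% in WT, without overlap. The ratio of Rgs3 to Rgs5 was 0.13, 0.14 and 0.16 in KO and 0.30, 0.30 and 0.21 in WT. This pair, too, was picked with the values known. It sets a member with a lower KO mean over a member with a higher KO mean, and it carries no test.

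Rgs12, of the R12 group, was at 18.6, 19.4 and 28.4 FPKM in KO and 16.2, 16.7 and 7.88 FPKM in WT (log2 change 0.71 ± 0.30, adjusted p = 0.48). The KO libraries were all above the WT ones, by little in the mixed and male pools. Rgs22 was at 6.51, 6.28 and 5.59 FPKM in KO and 2.46, 5.18 and 3.46 FPKM in WT (0.64 ± 0.28, adjusted p = 0.52), also without overlap. Rgs13, known from B cells of germinal centres and from mast cells, was at 2.86, 7.55 and 6.95 FPKM in KO and 1.95, 3.38 and 3.47 FPKM in WT (0.73 ± 0.34, adjusted p = 0.56). In each kind of pool the KO value of Rgs13 was above the WT value, and the groups overlapped only through the KO mixed library. The 5 B and plasma cell markers summed to 155 to 378 FPKM in KO and 26.5 to 77.2 FPKM in WT. Most of this sum was Igj, the joining chain of secreted antibodies, at 186, 366 and 147 FPKM in KO and 21.5, 72.0 and 42.7 FPKM in WT. The B cell markers Cd79a, at 2.07, 3.75 and 2.48 FPKM in KO and 2.48, 1.64 and 1.71 FPKM in WT, and Ms4a1, under 1 FPKM in all libraries, overlapped between genotypes. Cd79b overlapped too, at 1.38, 3.03 and 2.25 FPKM in KO and 1.23, 1.56 and 1.13 FPKM in WT. Like Igj, Pou2af1 did not overlap, at 3.16, 4.26 and 2.35 FPKM in KO and 1.02, 1.55 and 0.98 FPKM in WT. The 6 mast cell markers summed to 4.80 to 7.05 FPKM in KO and 2.98 to 4.34 FPKM in WT, with Ms4a2 at 0 in all libraries. Kit was the largest part of this sum in every library, at 3.26 to 3.74 FPKM in KO and 1.70 to 2.77 FPKM in WT. Kit and the low Tpsb2 did not overlap between genotypes, while Cpa3, Mcpt4 and Cma1 did. The part of B, plasma or mast cells, or of the solitary chemosensory cells, in the Rgs13 values was not tested.

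The R7 group, brakes on Go in neurons, had negative changes in 4 of 4 tested members, although Rgs9 (0.26) and Rgs11 (0.07) turned positive without both mixed pools and Rgs6 (0.07) without the WT mixed library. Rgs7 was at 4.48, 4.19 and 5.16 FPKM in KO and 9.92, 6.38 and 5.32 FPKM in WT, all KO libraries below all WT libraries (log2 change -0.51 ± 0.28, adjusted p = 0.70). Rgs6 averaged 4.87 ± 0.84 FPKM in KO and 7.67 ± 5.39 in WT, where the mixed library alone held 13.9 FPKM. Rgs9 averaged 2.15 ± 0.29 and 2.57 ± 1.58 FPKM, and Rgs11 13.5 ± 4.996 and 13.8 ± 6.31, with large spread between pools of both genotypes. None of the 4 passed.

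Among the remaining RGS genes, Rgs2 averaged 11.05 ± 0.63 FPKM in KO and 8.85 ± 1.43 in WT, Rgs16 7.81 ± 3.05 and 5.09 ± 0.93, Rgs10 5.96 ± 2.94 and 4.90 ± 1.97, and Rgs19 4.95 ± 0.11 and 4.21 ± 0.27. Of these only Rgs19 did not overlap (log2 change 0.19 ± 0.25, adjusted p = 1). Rgs20 averaged 3.90 ± 1.40 FPKM in KO and 4.89 ± 1.33 in WT, and its exons overlap those of Atp6v1h on the opposite strand. Rgs14, Rgs4 and the anchor Rgs7bp were the lowest of the tested RGS genes and overlapped as well. Rgs1, Rgs8, Rgs17, Rgs18 and Rgs9bp were under 0.5 FPKM on average and were not tested.

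**Figure D4:**
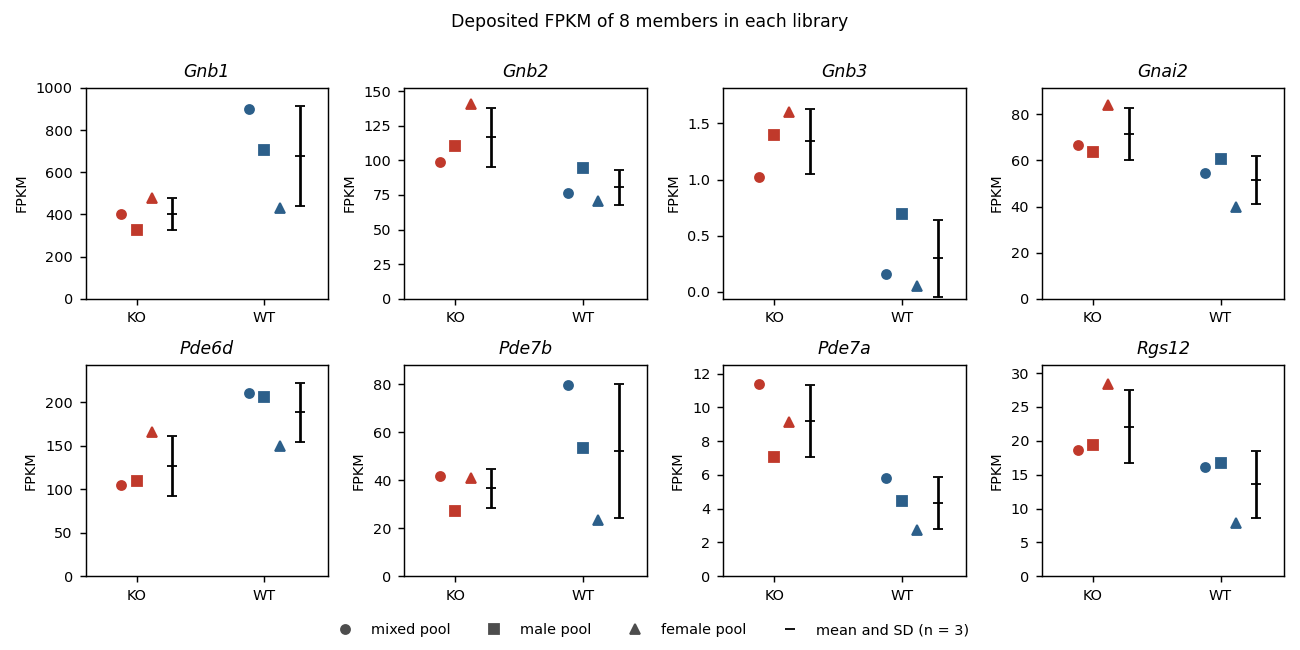
Deposited FPKM of 8 members in each library, KO in red left of WT in blue, with circles for mixed, squares for male and triangles for female pools; black marks give the mean and SD (n = 3). Gnb2, Gnb3, Gnai2, Pde7a and Rgs12 have all KO points above all WT points, while the WT female point lies among the KO points for Gnb1 and Pde6d and below them for Pde7b.

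Adenylyl cyclases other than Adcy3 were low, with summed FPKM of 23.5 ± 3.99 in KO and 18.3 ± 5.52 in WT. For comparison, Adcy3 averaged 128 ± 40.1 FPKM in KO and 205 ± 86.0 in WT. Adcy6, a cyclase inhibited by calcium and present in most tissues, led them at 16.4, 12.1 and 12.9 FPKM in KO and 12.5, 8.79 and 6.14 FPKM in WT. It was higher in KO in each kind of pool, but the KO male library was below the WT mixed one (log2 change 0.58 ± 0.28, adjusted p = 0.61). Adcy6 held 58.3, 59.3 and 58.0% of the cyclase FPKM in KO and 53.7, 45.75 and 49.6% in WT. The other calcium-inhibited cyclase, Adcy5, averaged 2.77 ± 0.68 FPKM in KO and 2.60 ± 0.92 in WT.

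Adcy2 averaged 1.73 ± 0.37 FPKM in KO and 2.22 ± 0.31 in WT, and its share of the cyclase FPKM was 6.41 to 8.73% in KO and 9.64 to 15.3% in WT libraries. It was the only tested cyclase with a negative change (-0.24 ± 0.24, adjusted p = 1). Adcy4 was at 1.15, 0.84 and 0.97 FPKM in KO and 0.62, 0.77 and 0.44 FPKM in WT, without overlap (0.30 ± 0.21, adjusted p = 0.86). Adcy7 averaged 1.84 ± 0.37 and 1.54 ± 0.93 FPKM and Adcy9 1.78 ± 0.31 and 1.54 ± 0.33. The calcium-stimulated Adcy1 and Adcy8 and the soluble Adcy10 were under 0.5 FPKM on average, at up to 0.62, 0.24 and 0.094 FPKM in any library.

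Among the phosphodiesterases that degrade cAMP, Pde7a had the largest positive change of the tested members on the log2(FPKM + 1) scale. This enzyme, known from lymphocytes among other cells, was at 11.4, 7.08 and 9.11 FPKM in KO and 5.82, 4.46 and 2.77 FPKM in WT. The groups did not overlap, and the log2 change of 0.95 ± 0.30 (95% interval 0.31 to 1.59) had an adjusted p of 0.23. After rescaling the libraries by median-of-ratios factors the change was 0.94 with an adjusted p of 0.047, and without the WT mixed library it was 1.15 with an adjusted p of 0.013. Without the KO mixed library the adjusted p was 0.71, the highest over the alternatives, and without the WT female library the change was 0.72, the lowest. The KO level was 235, 189 and 217% of the WT level after rescaling, and 195, 159 and 329% before. The 4 T cell markers summed to 3.17 to 4.35 FPKM in KO and 1.62 to 2.97 FPKM in WT, and the 6 macrophage markers to 104 to 169 and 66.5 to 91.3 FPKM. Neither summed range overlapped. On its own, however, each T cell marker overlapped between genotypes, with Lck at 0.75, 0.58 and 1.13 FPKM in KO and 0.67, 0.91 and 0.58 FPKM in WT. Of the macrophage markers only C1qa overlapped. The part of such cells in the Pde7a values was not tested.

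Pde7b, its closest relative, was at 41.8, 27.1 and 41.0 FPKM in KO and 79.6, 53.4 and 23.5 FPKM in WT (log2 change -0.36 ± 0.36, adjusted p = 1). It was lower in KO in the mixed and male pools and higher in the female pools. The ratio of Pde7b to Pde7a was 3.67, 3.835 and 4.51 in KO and 13.7, 11.98 and 8.50 in WT, without overlap. This pair was picked with the values known. It sets a member with a lower KO mean over the member with the largest positive change, so its separation was likely beforehand and carries no test. Pde7a held 11.4, 10.5 and 9.999% of the FPKM of the catalytic phosphodiesterases in KO and 4.66, 4.90 and 5.23% in WT, while Pde7b held 41.95, 40.1 and 45.05% in KO and 63.8, 58.7 and 44.45% in WT. The shares of Pde7a thus separated the genotypes, and those of Pde7b did not.

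Of the other cAMP enzymes, Pde4d was at 5.04, 5.05 and 4.80 FPKM in KO and 4.39, 3.15 and 2.25 FPKM in WT, without overlap (log2 change 0.51 ± 0.27, adjusted p = 0.68). Pde4b averaged 5.88 ± 1.54 FPKM in KO and 4.98 ± 0.695 in WT, Pde8a 6.30 ± 2.07 and 5.43 ± 0.97, and Pde8b 2.77 ± 0.27 and 2.06 ± 0.64, all overlapping. Pde4c was under the filter.

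Pde6d, which shuttles lipid-modified proteins to cilia and membranes, was at 105, 109 and 166 FPKM in KO and 211, 206 and 149.7 FPKM in WT. Its log2 change was -0.58 ± 0.26 (adjusted p = 0.52), and the groups overlapped through the WT female library. The catalytic retinal partners Pde6a, Pde6b and Pde6c were at or near 0, as given above for the first 2, and Pde6c reached at most 0.25 FPKM and the inhibitory subunit Pde6g at most 0.42 FPKM. Pde6h was listed at 0 in all WT libraries and the KO mixed library and at 0.349 and 0.594 FPKM in the KO male and female ones.

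The cGMP-specific Pde9a was at 3.47, 2.96 and 3.21 FPKM in KO and 2.39, 2.27 and 2.43 FPKM in WT (log2 change 0.32 ± 0.24, adjusted p = 0.91), without overlap. Pde5a, found in smooth muscle, averaged 4.18 ± 1.41 FPKM in KO and 4.91 ± 1.09 in WT. Enzymes that take both cyclic nucleotides were low and overlapped: Pde2a averaged 5.74 ± 1.58 FPKM in KO and 3.65 ± 1.10 in WT, Pde1a 1.504 ± 0.55 and 0.79 ± 0.14, Pde1b 1.96 ± 0.53 and 1.88 ± 0.27, and Pde3b 1.53 ± 0.08 and 1.25 ± 0.36. Pde3a and Pde11a were under 1 FPKM on average and overlapped, while Pde10a was not tested. Pde4dip, a centrosome protein, and Pde12, a mitochondrial enzyme that trims RNA, averaged 12.1 ± 1.75 and 8.76 ± 1.25 FPKM in KO and 11.7 ± 3.62 and 7.70 ± 2.35 FPKM in WT.

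The KO level relative to WT differed between the kinds of pool, and the scaling of the libraries moved it. As deposited, 31, 37 and 10 of the 67 members were lower in KO in the mixed, male and female pools. After rescaling by median-of-ratios factors these counts were 17, 23 and 34. Gnb1 in KO was at 44.7, 46.2 and 112% of WT as deposited and at 53.9, 55.0 and 73.8% after rescaling, so it was lower in KO in all 3 kinds of pool once rescaled. Pde6d was at 49.9, 53.1 and 111% as deposited and at 60.1, 63.3 and 73.4% after rescaling. Rgs3 was at 54.0, 50.4 and 141% and then at 65.0, 60.1 and 93.2%. Pde7b stayed on both sides, at 52.5, 50.8 and 175% and then at 63.2, 60.6 and 115%. In the rescaled fit, adjusted p was 0.15 for Gnb1, 0.13 for Pde6d and 0.56 for Pde7b.

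**Figure D5:**
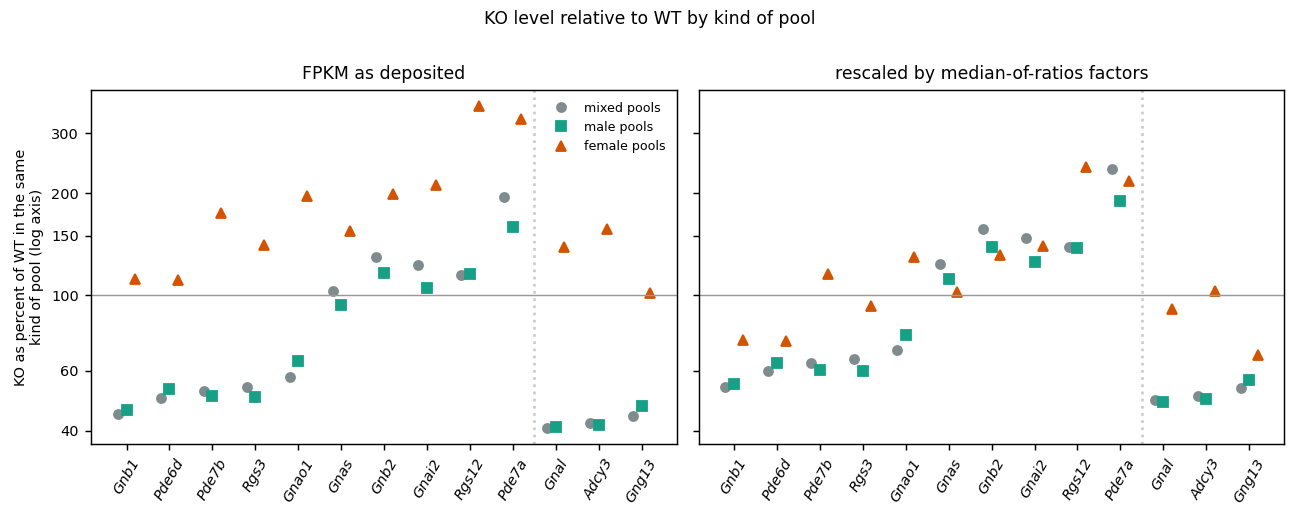
KO level as a percentage of the WT level in the same kind of pool (log axis) for 10 members and, right of the dotted line, for Gnal, Adcy3 and Gng13, as deposited (left) and after rescaling by median-of-ratios factors (right). As deposited the female pools (orange triangles) stand above the mixed (grey circles) and male (green squares) pools for every gene drawn; after rescaling Gnb1 and Pde6d are under 100% and Gnb2, Gnai2, Rgs12 and Pde7a over 100% in all 3 kinds of pool.

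The effect of sex and its product with genotype were tested with the female share of the pool (0, 50 or 100%). For the female share, 0 of 67 members passed in limma, against 0.0996% of all genes, and 0 had an unadjusted p under 0.05, against 0.743%. For the product, 0 members passed, against 0.126% of all genes, and 4 had an unadjusted p under 0.05, against 4.15%. These were Pde7b (1.73 on the log2 scale), Gnao1 (1.57), Rgs12 (1.52) and Rgs3 (1.44), each with an adjusted p of 0.68. All 4 were positive, as were 3.73% of all genes at that p. The median product term was 0.56 for the members and 0.71 for all genes as deposited, and it was positive for 92.3% of all genes. After rescaling it was -0.02 and 0.02, and no member had an unadjusted p under 0.05. Gng11 had the smallest unadjusted p of the better measured members for the female share, at 0.30.

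Of 50 further pathway genes looked up, 44 were tested and 0 passed in limma, with 2 higher and 5 lower at an unadjusted p under 0.05, where 4.26% of all genes were higher and 4.62% lower. The lower ones were Cnga4 and Cnga2, subunits of the cAMP-gated channel (log2 changes -1.03 and -0.94), Pde1c (-0.81), Gng13 (-0.74) and the chloride channel Ano2 (-0.74), and the higher ones were Gnat3 (0.91) and Plcb2 (0.49), of taste-like transduction. The 44 had a median change of -4.08e-05 on the log2 scale, with 22 positive and 22 negative. Without the WT female library 6 of the 44 were called lower, namely Ano2, Cnga2, Cnga4, Cngb1, Gnal and Pde1c, and no member was; over all genes 477 of 15149 were then called lower, against 94 of 15067 with all libraries. The 7 receptor kinases and arrestins had a median of 0.20 and none passed. The 8 subunits of protein kinase A and the Epac proteins had a median of -0.08 and overlapped between genotypes except for Rapgef3, at 2.08 ± 0.135 FPKM in KO and 1.32 ± 0.27 in WT.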

How the data were processed

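RNA from olfactory epithelium pools (3 KO, 3 WT) was sequenced, and the authors deposited 1 table of gene-level values, read here as FPKM from its Cufflinks-style header and its range, since it names no unit. Per the submitters' processing notes, TopHat2 2.0.7, Bowtie, Cufflinks 1.3.3 and Cuffdiff were used with build mm9; the sources used here do not give settings, annotation or strandedness. Column headers that name a genotype but no sex were matched to the mixed pools by elimination. For a repeated symbol the row of highest mean was kept.

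Values were analysed as log2(FPKM + 1), which understates changes of low genes, with limma 3.58.1 in R 4.3.3 (prior variance following the mean, symbols averaging 0.5 FPKM or more, Benjamini-Hochberg adjustment over all 15067, threshold 0.05). The test was tried on simulated data. Depth came from single-transcript genes of at least 1200 nt, less 150 nt, and is approximate, as the lengths are from GRCm38 models. Members, lists and tests were chosen with earlier results of these data known. Members were named by level (4 highest per family), by smallest unadjusted p (4 per family averaging 1 FPKM or more, and for the 2 sex terms), or as part of a whole subfamily. Of the 50 pathway symbols, Ric8a was matched by its older name, Ric8. Overlaps of exons were looked up in GENCODE M21.

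Depth, as estimated, was 3460000 to 14220000 fragments, lowest in both mixed pools. The alternatives were other pseudocounts, filters and scalings, terms for the kind of pool, and each library left out.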

Additional observations from a re-analysis of the deposited data

How the results depend on the processing

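Of 1186 member changes recomputed over 18 alternatives, 1127 kept their direction and their side of the threshold, 6 passed and 53, in 26 members, changed sign. The count of members called was 0, and it was 1 after rescaling by median-of-ratios factors or to equal upper quartiles (Pde7a), and 1 with a term for mixed pools, without both mixed pools, or with the kind of pool as a replicate block (Gnb3). Leaving out each library gave 0 to 1, the 1 being Pde7a without the WT mixed library. Pathway calls were 0, 2 after either rescaling and 2 with the block, and 0 to 6 with each library left out. Calls over all genes were 126, against 30 without a filter, 268 and 243 after the rescalings, 440 with the block, 289 with the mixed term, 209 with the female share, 333 without both mixed pools, and 42 (without the KO female library) to 573 (without the WT female library) with each library left out. The cause of these differences was not tested. Deviations of same-kind pools correlated at 0.36, 0.21 and -0.09 (mixed, male, female), and 3 of 6 libraries correlated best with their own kind, so the kinds of pool were not taken as pairs; with the replicate block, 1 member (Gnb3, adjusted p = 0.013) was called. Without both mixed pools the log2 change had the opposite sign for Gna12 (0.0421), Gnao1 (0.16), Gnaz (0.14), Gng11 (-0.19), Gng3 (0.23), Gng4 (-0.0231), Pde11a (-0.0134), Pde4b (-0.0056), Rgs11 (0.0726), Rgs4 (-0.19), Rgs9 (0.26). Pde11a also had the opposite sign after median-of-ratios (-0.0176) and upper-quartile (-0.0065) rescaling. With each library left out, the change took both signs for Adcy5 (-0.14 to 0.23), Adcy7 (-0.0371 to 0.49), Gna12 (-0.45 to 0.0057), Gnao1 (-0.59 to 0.26), Gnaq (-0.13 to 0.37), Gnaz (-0.29 to 0.0934), Gnb2l1 (-0.26 to 0.13), Gng10 (-0.26 to 0.16), Gng11 (-0.0791 to 0.22), Gng3 (-0.23 to 0.13), Gng4 (-0.0078 to 0.22), Gng7 (-0.29 to 0.0128), Pde11a (-0.11 to 0.11), Pde12 (-0.0498 to 0.34), Pde1b (-0.0912 to 0.17), Pde3a (-0.29 to 0.0457), Pde4dip (-0.16 to 0.26), Pde7b (-0.84 to 0.0183), Pde8a (-0.0383 to 0.39), Rgs10 (-0.11 to 0.59), Rgs11 (-0.25 to 0.31), Rgs4 (-0.0021 to 0.39), Rgs6 (-0.69 to 0.0730), Rgs7bp (-0.14 to 0.23), Rgs9 (-0.43 to 0.24).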
